A study of Homo sapiens with 6 samples.

Results

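Collagens are the most abundant proteins of the extracellular matrix, and each molecule is a triple helix wound from 3 alpha chains that may be copies of 1 gene's product or come from different genes. Fibrillar collagens form the tension-bearing cables of connective tissue, type IV collagen forms the sheet of the basement membrane on which mammary epithelium rests, type VI collagen forms beaded filaments around cells, and fibril-associated collagens bind to the surface of the cables. Interstitial collagens are made mainly by mesenchymal cells, so their chain genes are often read in epithelial-mesenchymal transition (EMT). The genes described here are the collagen chain genes, chosen by symbol from COL1A1 to COL28A1 without COL17A1, and they numbered 43 of the 18417 genes that a probe set with a single symbol represented. Each gene took its brightest probe set, and 42 of the 43 had 1 such probe set. The exception was COL11A2, with several.

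MCF10A, a human mammary epithelial line that is immortalized but forms no tumors, was measured untransfected on 3 arrays. MCF10A-SNAI1 cells, measured on another 3, are MCF10A cells transfected with a plasmid for Flag-tagged SNAI1, a transcriptional repressor that drives EMT. The plasmid has a CMV enhancer with a chicken beta-actin promoter, and the cells were selected with puromycin. They were made in a laboratory in Florida, whereas the untransfected cells came from ATCC as a gift from Bonn. Both lines grew in a mammary epithelial medium with cholera toxin. The control carried no plasmid and is not stated to be the stock that was transfected. The plasmid, the selection, the source of the cells and their separate passage thus cannot be told apart from SNAI1 itself. Values are log2 values of the deposited table, given for the 3 arrays of a line in the order of their replicate numbers or as mean ± SD, and a log2 fold change is the mean of MCF10A-SNAI1 less that of MCF10A, given with its standard error after the sign ± where limma tested it. A gene was called at an adjusted p below 0.01 from limma and a change of more than 2-fold, which are the thresholds of the study. With 3 arrays in each line the precision is limited, and the smallest p that an exact permutation test (two-sided) can reach here is 0.1, which it takes for any gene with all arrays of one line above all of the other.

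SNAI1, which checks the labels, was at 5.76 ± 0.037 in MCF10A and 10.51 ± 0.015 in MCF10A-SNAI1 cells (SD, n = 3 arrays each). All 6 measured epithelial markers (KRT14, CDH3, CDH1, EPCAM, KRT15 and KRT5) were called lower, against 2.54% of all genes. CDH1, which encodes E-cadherin, fell from 9.05 ± 0.070 to 5.07 ± 0.13 (log2 fold change -3.97, adjusted p = 4.47e-07 from limma). KRT5, a basal keratin, was still at 11.30 in MCF10A-SNAI1 cells. Array medians were 6.04 to 6.09, and over all probe sets the Pearson r within a line was 0.995 to 0.996. Of 8 fibroblast markers, 3 were called higher (DPT, FBLN1 and LUM, against 3.1% of all genes) and none lower (against 2.54%). The mean log2 level of the 8 was 5.79 to 5.83 on the MCF10A arrays and 6.71 to 6.78 on the MCF10A-SNAI1 arrays. The uncalled PDGFRB, THY1, TCF21 and TWIST2 had log2 fold changes of 0.40, 0.076, -0.081 and -0.15. The fibroblast receptor gene PDGFRA stayed low, at 4.46 and 4.73. LUM, at 3.23 and 4.77, was also under the olfactory receptor limits given below in both lines. None of 5 endothelial and none of 4 leukocyte markers was called, but 5 and 3 of them lay at or under those limits in both lines. CD68, a lysosomal marker of macrophages, was higher just under the fold threshold, at 8.15 in MCF10A and 9.13 in MCF10A-SNAI1 cells (log2 fold change 0.99, limma adjusted p = 8.86e-05). These markers moved beside the collagen genes, and their part in the results below was not tested. In such bulk RNA, fewer cells of a type and less RNA per cell cannot be told apart.

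Of the 43 collagen chain genes, 6 rose in MCF10A-SNAI1 cells (against 3.1% of all genes called higher) and none was called lower (against 2.54% of all genes). The 6 were COL3A1, COL12A1, COL6A3, COL1A1, COL6A1 and COL8A1. They stood well apart from the rest, as the smallest log2 fold change among them was 1.90 and the largest among the others 0.69. These 6 and no other collagen gene were also called by the methods' t-test. By limma, 2 members, COL16A1 and COL7A1, were lower at an unadjusted p below 0.05. The share of all genes lower at that p was not computed. These are the same 2 that are counted as lower below without a fold threshold. The median log2 fold change of all 43 was 0.085, beside -0.013 for all genes, so most collagen genes moved little. Its sign rested on 1 array, as it was -0.0073 without MCF10A-SNAI1 replicate 1, when the median of all genes also fell, to -0.031. Members above 0 numbered 29 with every array (67.4%, against 47.4% of all genes) and 21 without that one. Without any fold threshold, 11 members were higher (25.6%, against 12.1% of all genes) and 2 lower (4.65%, against 11.2%). These counts depended on the test, with 10 higher and 0 lower by the methods' t-test, 8 and 0 with the replicate number as a block, and 9 higher with any array left out. The 2 lower ones then held only without MCF10A-SNAI1 replicate 1. All MCF10A-SNAI1 arrays lay above all MCF10A arrays for 14 members (32.6%, against 23.7% of all genes) and below them for 3 (6.98%, against 24.6%).

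**Figure D1:**
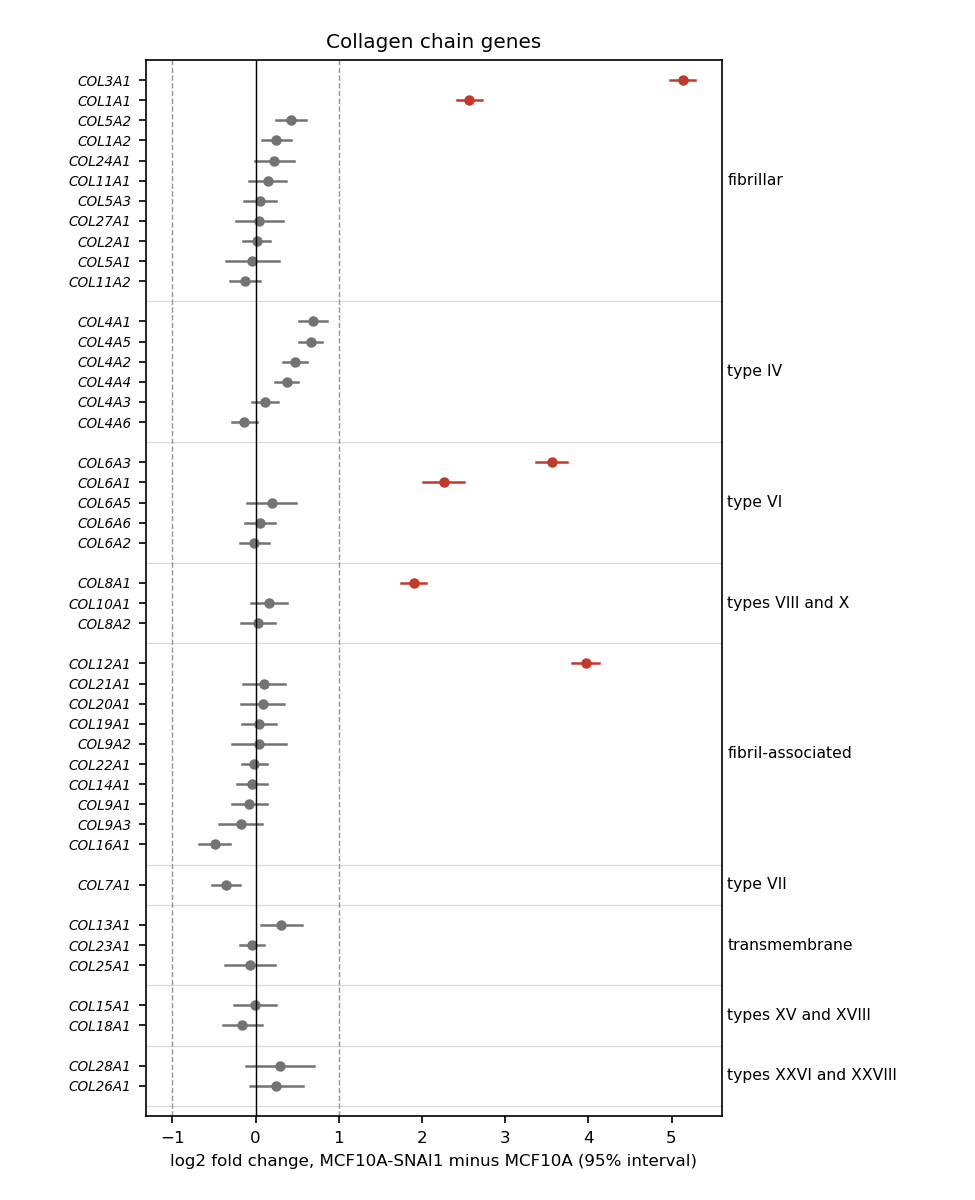
Log2 fold change, MCF10A-SNAI1 minus MCF10A, of the 43 collagen chain genes, grouped by kind of collagen, with limma's 95% interval from 3 arrays per line. Genes called higher are red, those not called are grey, and dashed lines mark 2-fold. The 6 red genes run from 1.90 (COL8A1) to 5.14 (COL3A1), and all grey genes lie between -0.49 and 0.69.

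Among the fibrillar collagens, COL3A1 rose most. COL3A1 encodes the single chain of type III collagen, a homotrimer found with type I in stretchable tissues such as skin and vessel walls. Its log2 values were 6.21, 6.26 and 6.11 in MCF10A, against 11.32, 11.33 and 11.34 in MCF10A-SNAI1 cells. The rise was 35.1-fold (log2 fold change 5.14 ± 0.064, limma adjusted p = 7.06e-08), the 9th highest of all 18417 genes. COL1A1 encodes the alpha-1 chain of type I collagen, the main fibre of bone, tendon and stroma. It was at 7.42, 7.37 and 7.30 in MCF10A and 9.97, 9.92 and 9.92 in MCF10A-SNAI1 cells. It rose 5.94-fold (log2 fold change 2.57 ± 0.061, limma adjusted p = 6.54e-07). For both genes the gap between the lines was far wider than the spread within either line.

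The partner chain of type I collagen was not called, by the 1 probe set that carried its symbol alone. COL1A2 encodes the alpha-2 chain, which usually joins alpha-1 chains in a heterotrimer. It was at 5.95, 6.14 and 5.97 in MCF10A and 6.29, 6.22 and 6.30 in MCF10A-SNAI1 cells. The arrays did not overlap, but the log2 fold change was 0.25, with a 95% interval of 0.076 to 0.42 (adjusted p = 0.0489 from limma). The log2 fold changes of COL1A1 and COL1A2 differed by 2.32 ± 0.072 (standard error of the within-array difference, n = 3 arrays per line, exact permutation p = 0.1, adjusted p = 0.1 over 8 pairs of chains). COL5A2, a chain of the type V collagen that starts fibril assembly and the neighbour of COL3A1 on chromosome 2, was at 0.42 ± 0.075 (limma adjusted p = 0.0057). It missed 0.01 with each of the 6 arrays left out (limma adjusted p 0.0125 to 0.0251) and by the methods' t-test (adjusted p = 0.0235). Its partner COL5A1 was at -0.038 (adjusted p = 0.894). The other 6 fibrillar genes, which include the cartilage genes COL2A1, COL11A1 and COL11A2, had log2 fold changes of -0.13 to 0.23 and none passed the adjusted p. A second probe set value of COL11A2, shared by its other 2 probe sets, gave 0.056.

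**Figure D2:**
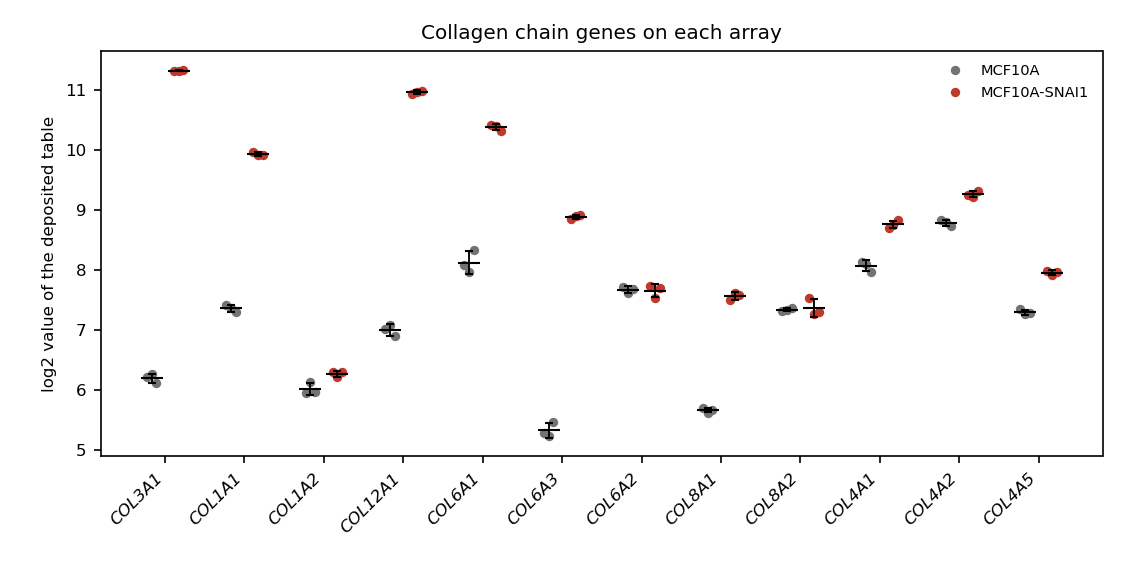
Log2 values of 12 collagen chain genes on each array of MCF10A (grey) and MCF10A-SNAI1 (red), black marks giving mean and SD (n = 3 arrays). COL3A1, COL1A1, COL12A1, COL6A1, COL6A3 and COL8A1 are far higher in the red arrays, whereas COL1A2, COL6A2 and COL8A2 differ by at most 0.25 between the means.

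COL12A1, a homotrimeric collagen that sits on type I fibrils and links them to other matrix proteins, was the strongest of the fibril-associated group. It was at 7.02, 7.08 and 6.90 in MCF10A and 10.93, 10.98 and 10.99 in MCF10A-SNAI1 cells. This was a 15.7-fold rise (log2 fold change 3.97 ± 0.069, limma adjusted p = 1.77e-07). None of the other 9 fibril-associated genes was called. COL16A1 had the lowest log2 fold change of all members. Its log2 values were 7.83, 7.78 and 7.79 in MCF10A and 7.43, 7.30 and 7.19 in MCF10A-SNAI1 cells (log2 fold change -0.49 ± 0.077, limma adjusted p = 0.0033). The adjusted p was 0.0183 by the methods' t-test and over 0.01 with 5 of the 6 arrays left out, reaching 0.0157 by limma. The remaining members of this group, COL9A1, COL9A2, COL9A3, COL14A1, COL19A1, COL20A1, COL21A1 and COL22A1, lay between -0.18 and 0.10.

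Type VI collagen was split. Its core molecule needs alpha-1, alpha-2 and alpha-3 chains together, encoded by COL6A1, COL6A2 and COL6A3. COL6A3 rose from 5.29, 5.23 and 5.47 in MCF10A to 8.85, 8.90 and 8.91 in MCF10A-SNAI1 cells. This was 11.8-fold (log2 fold change 3.56 ± 0.078, limma adjusted p = 4.83e-07). COL6A1 rose from 8.09, 7.96 and 8.33 to 10.43, 10.40 and 10.32, or 4.79-fold (log2 fold change 2.26 ± 0.10, limma adjusted p = 1.04e-05). Its SD of 0.19 in MCF10A was the widest among the 6 called genes and still small beside the change. COL6A2 was at 7.72, 7.61 and 7.68 in MCF10A and 7.74, 7.54 and 7.70 in MCF10A-SNAI1 cells, and these arrays overlapped. Its log2 fold change was -0.015, with a 95% interval of -0.19 to 0.16 (adjusted p = 0.931 from limma). COL6A1 and COL6A2 are neighbours on chromosome 21, and their log2 fold changes differed by 2.27 ± 0.12. Those of COL6A3 and COL6A2 differed by 3.57 ± 0.10 (standard error, n = 3 arrays per line, exact permutation p = 0.1 for either pair). COL6A5 and COL6A6, alternative alpha-3-like chains, were at log2 fold changes of 0.19 and 0.051, and neither was called.

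Promoter sequence was on hand for 31 of the 43 genes, including COL12A1 and COL6A3 of the called ones. The promoters of these genes are shown beside those of COL6A2, the type VI chain that was not called, and COL16A1, the member with the lowest log2 fold change. Each is the 250 bases before the start of the gene in RefSeq on GRCh38.p14, read along the gene, at chr6:75206054-75206303 (minus strand), chr2:237414165-237414414 (minus strand), chr21:46097862-46098111 (plus strand) and chr1:31704018-31704267 (minus strand). Capitals mark the E-box CAGGTG that Snail proteins bind, its reverse complement CACCTG, or the TATA motif TATAAA.
COL12A1: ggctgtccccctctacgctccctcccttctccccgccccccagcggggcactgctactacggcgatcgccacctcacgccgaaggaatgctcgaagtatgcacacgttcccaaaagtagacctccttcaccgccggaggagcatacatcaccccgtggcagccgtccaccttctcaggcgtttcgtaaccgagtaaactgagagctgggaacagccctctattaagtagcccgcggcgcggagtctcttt
COL6A3: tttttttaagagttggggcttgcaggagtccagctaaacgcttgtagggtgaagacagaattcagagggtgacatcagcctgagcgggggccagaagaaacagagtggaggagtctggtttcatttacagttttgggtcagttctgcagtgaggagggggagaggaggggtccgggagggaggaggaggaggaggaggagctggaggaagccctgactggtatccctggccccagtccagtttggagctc
COL6A2: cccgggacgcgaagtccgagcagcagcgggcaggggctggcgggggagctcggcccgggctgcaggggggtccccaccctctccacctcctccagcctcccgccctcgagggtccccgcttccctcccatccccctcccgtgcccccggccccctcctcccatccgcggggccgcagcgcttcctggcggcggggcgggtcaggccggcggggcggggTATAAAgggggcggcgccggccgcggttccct
COL16A1: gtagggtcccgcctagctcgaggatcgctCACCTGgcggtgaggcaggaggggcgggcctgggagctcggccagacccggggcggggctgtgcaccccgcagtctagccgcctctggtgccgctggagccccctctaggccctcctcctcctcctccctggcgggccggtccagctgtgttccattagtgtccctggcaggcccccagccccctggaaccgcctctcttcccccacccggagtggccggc
Neither COL12A1 nor COL6A3 held the E-box in this window, and COL16A1 held it once, on the opposite strand, with the first letter 221 bases before the start. On either strand the E-box was in 5 of the 31 collagen promoters (16.1%, against 17.5% of 27305 promoters), those of COL16A1, COL4A3, COL4A4, COL8A2 and COL9A2. The windows of COL4A3 and COL4A4 shared 82 bases and the same match, so the 5 genes held 4 distinct sites. None of these 5 genes was called, but only 2 of the 31 genes with a promoter sequence were. TATAAA was in 5 of the 31 (16.1%, against 11.3% of all promoters) and stood 32 bases before the start of COL6A2. CCAAT was in 9 of the 31 (29.0%, against 32.9%), with 1 match shared by COL4A1 and COL4A2, and in neither COL12A1 nor COL6A3. These matches describe the letters of the window only.

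COL8A1 encodes a short chain that forms networks under endothelia and around vessels. It rose from 5.71, 5.63 and 5.67 to 7.49, 7.62 and 7.58, or 3.73-fold (log2 fold change 1.90 ± 0.063, limma adjusted p = 2.58e-06). The other type VIII chain gene, COL8A2, was at 7.32, 7.33 and 7.36 in MCF10A and 7.54, 7.27 and 7.30 in MCF10A-SNAI1 cells. The groups overlapped, and the log2 fold change of 0.032 had a 95% interval of -0.17 to 0.23. The difference between both chains was 1.87 ± 0.13 (standard error, n = 3 arrays per line, exact permutation p = 0.1). COL10A1, the collagen of hypertrophic cartilage, was at 0.16 (adjusted p = 0.292 from limma).

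None of the 6 type IV genes of the basement membrane was called. By limma, 4 were higher at an adjusted p below 0.01 and under 2-fold (COL4A1, COL4A2, COL4A4 and COL4A5), and COL4A3 and COL4A6 did not pass. With the replicate number as a block COL4A1 and COL4A5 still passed, but COL4A2 (adjusted p = 0.0101 from limma) and COL4A4 (0.0166) did not. COL4A1 and COL4A2 encode the chains of the common type IV heterotrimer. COL4A1 was at 8.14, 8.11 and 7.97 in MCF10A and 8.71, 8.75 and 8.83 in MCF10A-SNAI1 cells (log2 fold change 0.69 ± 0.072, limma adjusted p = 5.04e-04). COL4A2 was at 8.83, 8.81 and 8.73, and then at 9.26, 9.22 and 9.32 (log2 fold change 0.48 ± 0.062, limma adjusted p = 0.0014). These genes start head to head on chromosome 13, and their windows of 250 bases shared 126 bases. Their log2 fold changes had the same sign and differed by 0.21 ± 0.034 (standard error, n = 3 arrays per line, exact permutation p = 0.1).

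The minor type IV chains, which take part in specialised basement membranes, showed mixed values, and COL4A5 changed more than COL4A2. COL4A5 was at 7.35, 7.27 and 7.28 in MCF10A and 7.99, 7.91 and 7.97 in MCF10A-SNAI1 cells (log2 fold change 0.66 ± 0.059, limma adjusted p = 2.46e-04). Its neighbour on chromosome X, COL4A6, was at -0.13 (adjusted p = 0.218), with its MCF10A-SNAI1 arrays all below the MCF10A arrays. COL4A4 was at 0.37 ± 0.059 (limma adjusted p = 0.0036, but 0.0111 to 0.0172 with each of the 6 arrays left out) and its head-to-head neighbour COL4A3 at 0.11 (adjusted p = 0.291). COL7A1, which encodes the anchoring fibrils that pin the epithelial basement membrane to the stroma, was close to the threshold. It was at 8.13, 8.03 and 8.16 in MCF10A and 7.84, 7.70 and 7.71 in MCF10A-SNAI1 cells (log2 fold change -0.36 ± 0.070, limma adjusted p = 0.0093). It missed 0.01 by the methods' t-test (adjusted p = 0.0247), after quantile normalization (limma, 0.0142) and with 5 of the 6 arrays left out (limma, up to 0.0403).

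None of the 7 remaining genes passed the adjusted p. The transmembrane collagens COL13A1, COL23A1 and COL25A1 were at log2 fold changes of 0.31, -0.045 and -0.066, and COL13A1 had non-overlapping arrays. COL15A1 and COL18A1, which carry the precursors of the anti-angiogenic fragments restin and endostatin, were at -0.0030 and -0.16. COL26A1 and COL28A1 were at 0.25 and 0.29, with SDs up to 0.31, the widest of all members. Over the 30 members that neither were called nor passed the adjusted p, log2 fold changes ran from -0.18 to 0.31. Their 95% intervals lay between -0.43 and 0.70, so a 2-fold change of the measured value lay outside each of them. Of these members, 6 lay at the low levels described in the next paragraph, where a fold change can understate the change.

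The table holds no detection calls, so levels were set beside those of 341 olfactory receptor genes, which epithelial lines are not known to use. Of these receptor genes, 95% lay at or under 5.25 in MCF10A and 5.20 in MCF10A-SNAI1 cells. In both lines 6 collagen genes lay that low, and COL11A1 did so in MCF10A only. The genes were COL6A5, COL6A6, COL10A1, COL14A1, COL19A1 and COL21A1, none of them called. The 6 called genes lay at 5.33 (COL6A3) to 8.13 (COL6A1) in MCF10A. COL6A3 was thus just above that limit before its rise, where a fold change can understate the change. The uncalled chain gene COL1A2, at 6.02 in MCF10A and 6.27 in MCF10A-SNAI1 cells, was above the limits. It was below the highest receptor genes, at 6.64 and 6.84, and how well its probe set reads a change was not tested. Since probe sets differ in how brightly they read, a level above the limit does not show expression.

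**Figure D3:**
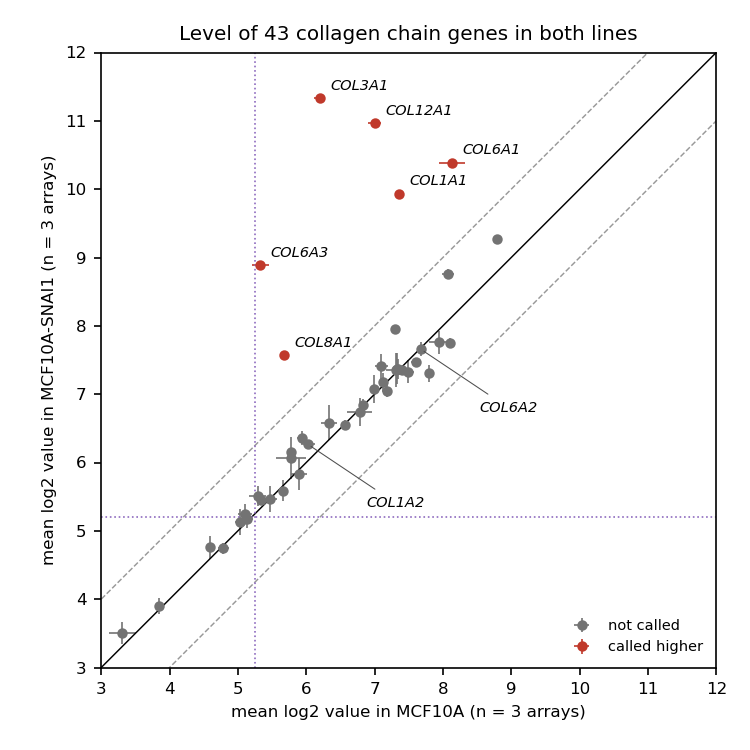
Mean log2 level of each of the 43 collagen chain genes in MCF10A (horizontal) and MCF10A-SNAI1 cells (vertical), with SD bars from 3 arrays per line. The solid line marks equal levels, dashed lines 2-fold, and dotted lines the level that 95% of 341 olfactory receptor genes do not exceed, at 5.25 and 5.20. The 6 red genes lie above the upper dashed line, and COL6A3 starts near the dotted line.

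Some genes that build, bind and cut collagen also changed. Of 57 measured genes of collagen synthesis, binding and degradation, 12 rose (21.1%, against 3.1% of all genes) and 4 fell (7.02%, against 2.54%). The median log2 fold change of these 57 was 0.15. Of 19 folding and modification genes, 2 rose, 2 fell and 15 were not called. P4HA1, a catalytic subunit of the prolyl 4-hydroxylase that makes the triple helix heat-stable, rose from 9.54 ± 0.056 to 10.91 ± 0.073 (log2 fold change 1.37, adjusted p = 1.49e-05 from limma). PLOD2, the hydroxylase of telopeptide lysines, rose at 1.27. The collagen prolyl 3-hydroxylase gene P3H2, which acts on type IV collagen, fell by 1.99 on the log2 scale, and the collagen chaperone gene FKBP10 fell by 1.62. P3H1, PLOD1 and the collagen chaperone gene SERPINH1 were higher but under 2-fold, at 0.89, 0.87 and 0.69. P3H3 and P3H4, relatives of P3H1, were lower but under 2-fold, at -0.70 and -0.57 (adjusted p = 7.00e-04 and 0.0038 from limma).

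Of 15 genes of export and propeptide cleavage, 3 rose and none fell. PCOLCE2, an enhancer of procollagen C-proteinase, rose from 6.03 ± 0.16 to 7.95 ± 0.099 (log2 fold change 1.92, adjusted p = 1.73e-05 from limma). SEC24D, a coat protein for large procollagen cargo, rose at 1.39, and BMP1, the C-proteinase itself, at 1.23. BMP1 was at 0.70 and under the fold threshold when its probe sets were averaged. Among 5 cross-linking enzymes, LOX, LOXL2 and LOXL1 rose at 2.88, 1.86 and 1.07, and LOXL3 and LOXL4 were not called, at -0.68 and 0.085. LOX, which starts the cross-links by oxidizing lysines, went from 6.14 ± 0.20 to 9.01 ± 0.046 (limma adjusted p = 4.04e-06).

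Collagen receptors changed in both directions. Of 10 measured, 2 rose, 2 fell and 6 were not called. ITGA2, the collagen-binding integrin chain of epithelia and platelets, fell from 9.43, 9.61 and 9.45 to 5.89, 5.83 and 5.72 (log2 fold change -3.68 ± 0.078, limma adjusted p = 4.51e-07). The epithelial collagen receptor kinase DDR1 fell at -1.38. Its mesenchymal relative DDR2 rose from 5.36, 5.38 and 5.49 to 7.03, 7.29 and 7.71 (log2 fold change 1.93 ± 0.16, limma adjusted p = 1.88e-04), and the integrin chain ITGA10 rose at 1.48. ITGB1, the shared beta chain, was at 0.17 (adjusted p = 0.0969). Of 8 degradation genes, MMP2, a gelatinase that also cuts type IV collagen, rose at 3.28 and cathepsin K, CTSK, at 1.14. With the methods' t-test CTSK missed the threshold (adjusted p = 0.0106). The interstitial collagenase genes MMP1, MMP8 and MMP13 were at -0.024, -0.053 and -0.13. All 3 lay under the olfactory receptor limits in both lines, so a change in them may not be readable here. The membrane-bound collagenase MMP14 was lower but under 2-fold, at -0.72.

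**Figure D4:**
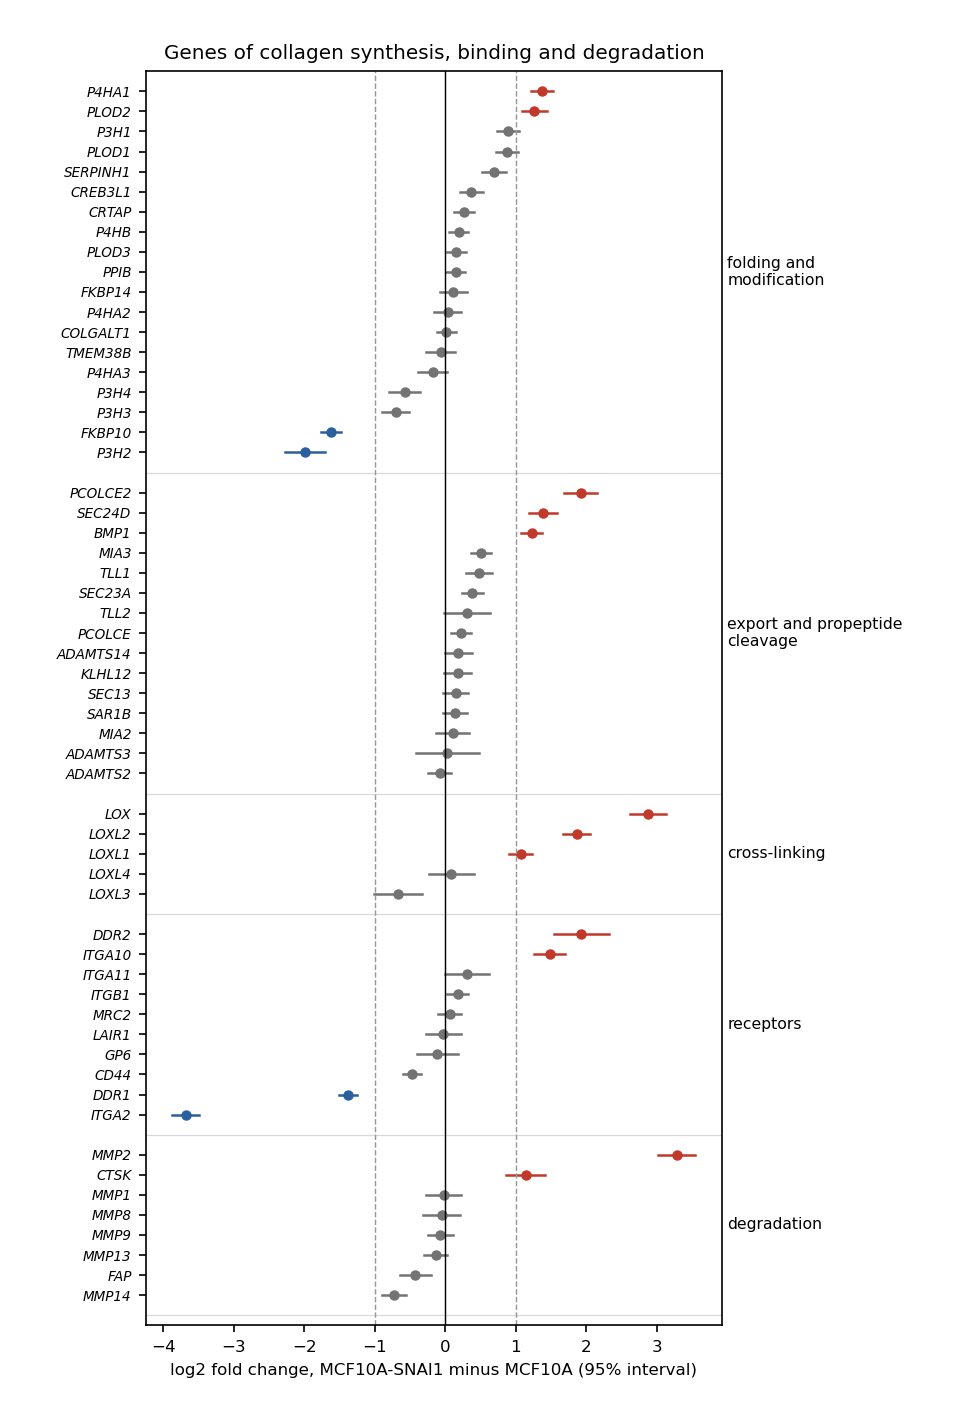
Log2 fold change, MCF10A-SNAI1 minus MCF10A, of 57 genes of collagen synthesis, binding and degradation by role, with limma's 95% interval from 3 arrays per line. Genes called higher are red, lower blue and not called grey, and dashed lines mark 2-fold. Cross-linking, export and degradation genes hold red points and no blue ones. Folding genes and receptors hold 2 red and 2 blue points each, the lowest being the receptor gene ITGA2 at -3.68.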

How the data were processed

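Total RNA of MCF10A and MCF10A-SNAI1 cells was hybridised to Affymetrix HuGene arrays, 3 per line. The authors deposited 1 table of log2 values for 33297 probe sets. GC RMA in GeneSpring GX is named in the methods, whereas GCOS, MAS5 and Expression Console 1.1 are named in the submitters' processing notes, and it is unclear which made the deposited values. Background correction and the lack of detection calls can affect low values most.

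The deposited values were compared without further normalization or filter in R 4.3.3 with limma 3.58.1, p-values being adjusted by Benjamini-Hochberg over the whole table. Genes were named from the 19460 probe sets with 1 symbol. A further 1754 had several symbols and gave no gene its value. Of these, 1 held a collagen symbol, recorded as COL1A2, and its values were not compared with those of the probe set used. Another 12083 had no symbol in the annotation at hand. All 43 collagen symbols had an entry in GRCh38.p14. The named genes were all called collagen genes, their partner chains, the uncalled members with an adjusted p below 0.01, SNAI1, CDH1 and up to 4 called pathway genes per list and direction. The other collagen genes and the uncalled pathway and marker genes that the text names were chosen after their values were seen, as were the motifs TATAAA and CCAAT. The members and lists were chosen with earlier results of these data known. COLGALT2, ITGA1 and 4 epithelial and 1 leukocyte markers had no probe set with 1 symbol and were not analysed here. The study calls the transcriptomes of each line independently reproduced but does not say how, so p-values measure the spread between these arrays, which may be technical. Alternatives were averaged probe sets, no fold threshold, the methods' t-test, robust moderation with a trend, removal of dim probe sets, removal of each array, a replicate block, median centring and quantile normalization. The linear model was tested on simulated data. Exact permutation tests used scipy 1.17.1 in Python 3.11.15. Protein sequences were not used here, and neither were promoters of the other 12 collagen genes, which were COL1A1, COL1A2, COL2A1, COL3A1, COL5A2, COL6A1, COL6A5, COL8A1, COL9A3, COL14A1, COL20A1 and COL22A1.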

Additional observations from a re-analysis of the deposited data

How the results depend on the processing

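The 6 collagen genes called higher were the same genes under quantile normalization, median centring, the replicate block, each left-out array, both filters on dim probe sets, other moderation, the methods' t-test and averaged probe sets, and none was called lower. With an adjusted p below 0.01 and no fold threshold, 12.1% of all genes were higher and 11.2% lower. Under the same rule, 11 of the 43 collagen genes were higher and 2 lower. Of the 57 genes of collagen synthesis, binding and degradation, 19 were higher and 8 lower. With the replicate block, the counts stayed at 6 and 0 for collagen genes and 12 and 4 for the others. Deviations of same-numbered arrays from their line's mean correlated at 0.12, 0.12 and -0.0062 across probe sets. Those of differently numbered arrays correlated at -0.13 to 0.034. With 3 arrays per line these values cannot decide whether same-numbered arrays share a batch. The median log2 fold change of the 43 genes was -0.0073 to 0.14 with an array left out. It fell from 0.085 to -0.0073 without MCF10A-SNAI1 replicate 1, and the number of members above 0 from 29 to 21. The small upward values of uncalled members thus rest on that array in part. Without it the median of all genes fell as well, from -0.013 to -0.031. With an array left out, COL6A2 ran from -0.054 to 0.045 and COL8A2 from -0.055 to 0.082, neither called. The sign of COL6A2 turned without MCF10A replicate 1 (0.010) or MCF10A-SNAI1 replicate 2, and that of COL8A2 without MCF10A-SNAI1 replicate 1. BMP1 was not called with averaged probe sets (0.70) and CTSK not by the methods' t-test (1.14). Of 475 values of single genes under these alternatives, 470 kept their direction and their call, which includes the fold threshold. The adjusted p alone was less stable for the 7 uncalled collagen genes that passed it. COL4A1 and COL4A5 kept it below 0.01 under all 14 alternatives. COL4A2 lost it with the replicate block (0.0101), as did COL4A4 (0.0166), COL5A2 (0.0202), COL16A1 (0.0101) and COL7A1 (0.0211). In all, COL4A4 lost it under 7 of 13 alternatives, COL16A1 under 7 of 14, and COL5A2 and COL7A1 under 8 of 14 each. The distance of COL6A3 from background in MCF10A was not measured, since the table has no detection calls.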
